A study of Homo sapiens with 12 samples.

Results

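Epithelial and mesenchymal state genes were followed in HEK293T cells, a transformed line from human embryonic kidney, after knockdown of CARM1 or of 1 of 4 proteins of the NuRD chromatin remodeling complex. The 10 members were taken by symbol: the repressors ZEB1, ZEB2 and SNAI2, the epithelial genes CDH1, EPCAM, KRT8, KRT18 and KRT19, and the mesenchymal genes CDH2 and VIM. All 10 were matched by Ensembl identifier among the 60660 genes counted. Of these, 8 were among the 12830 coding genes tested, and 7 (ZEB1, ZEB2, VIM, CDH2, KRT8, KRT18 and KRT19) lay above the expression minimum in every group. The minimum was an FPKM (counts scaled to exonic length and to the library's total on genes) above 0.5 in a group mean.

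RNA-seq was available for 12 libraries, 2 for each of 6 siRNA transfections: siCTL, the control siRNA, and siCARM1, siCHD4, siHDAC2, siGATAD2A and siKDM1A. All cells were of genotype WT, grown in DMEM with serum under normal conditions, and all groups shared transfection with an siRNA. The sources used here do not say whether the 2 libraries of a group came from separate cultures, so p-values measure the spread between these libraries, which may be technical. CARM1 is an arginine methyltransferase, CHD4 the remodeling ATPase of NuRD, HDAC2 a histone deacetylase, GATAD2A a zinc-finger subunit and KDM1A a histone demethylase. Which laboratory sequenced which library was not given.

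Epithelial cells hold together through E-cadherin and carry keratin filaments, whereas mesenchymal cells carry N-cadherin and vimentin filaments. The SNAI and ZEB zinc-finger proteins bind E-box sequences at epithelial promoters and recruit corepressors, among them KDM1A and NuRD. HEK293 lines are known for a mixed state, with keratins and vimentin in the same cells, and the comparisons asked where these genes moved when the corepressors were reduced.

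Promoter sequences are shown for ZEB1, ZEB2, VIM and CDH2, which all rose in siCARM1 and siKDM1A, as KRT18 did, since the E-box CAGGTG is the sequence that ZEB and SNAI proteins are known to bind. RefSeq windows of 300 bases on build GRCh38.p14, from 250 bases before an annotated start to 50 after it, were found for 5 of the 10 members. CAGGTG, or CACCTG as the same site on the other strand, was in 7231 of 35116 windows of all genes (20.6%). It was in 2 of the 7 windows of ZEB1, in none of the 2 windows of CDH2, and not in the single windows of VIM, ZEB2 and KRT8. Letters in capitals are the E-box. Which start these cells use was not examined, and a match is a description of the letters in a window.
ZEB1 at chr10:31318966-31319265, plus strand: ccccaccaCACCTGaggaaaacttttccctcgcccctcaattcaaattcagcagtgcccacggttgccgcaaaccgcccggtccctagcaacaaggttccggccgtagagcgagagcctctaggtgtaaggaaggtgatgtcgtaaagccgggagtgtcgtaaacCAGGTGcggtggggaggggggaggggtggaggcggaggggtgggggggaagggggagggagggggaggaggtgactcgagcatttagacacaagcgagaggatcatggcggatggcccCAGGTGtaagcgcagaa
ZEB1 at chr10:31318167-31318466, plus strand: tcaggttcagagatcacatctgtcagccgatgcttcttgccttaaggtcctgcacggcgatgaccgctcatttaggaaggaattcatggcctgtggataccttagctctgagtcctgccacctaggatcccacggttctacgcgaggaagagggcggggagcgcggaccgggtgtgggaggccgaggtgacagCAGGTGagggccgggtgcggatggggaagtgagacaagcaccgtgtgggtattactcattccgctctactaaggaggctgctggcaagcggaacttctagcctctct
ZEB2 at chr2:144520070-144520369, minus strand: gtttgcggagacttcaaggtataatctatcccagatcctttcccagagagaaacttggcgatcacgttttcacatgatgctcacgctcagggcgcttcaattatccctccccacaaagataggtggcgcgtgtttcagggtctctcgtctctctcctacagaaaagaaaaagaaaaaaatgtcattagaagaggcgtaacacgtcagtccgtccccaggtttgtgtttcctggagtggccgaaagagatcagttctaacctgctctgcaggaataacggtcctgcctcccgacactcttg
VIM at chr10:17227991-17228290, plus strand: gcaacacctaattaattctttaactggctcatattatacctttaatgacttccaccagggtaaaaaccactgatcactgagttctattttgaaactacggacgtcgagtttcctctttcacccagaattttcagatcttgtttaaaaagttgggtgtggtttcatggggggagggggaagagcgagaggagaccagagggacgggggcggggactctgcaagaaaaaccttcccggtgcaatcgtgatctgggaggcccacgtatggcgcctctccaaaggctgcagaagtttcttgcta
CDH2 at chr18:28177081-28177380, minus strand: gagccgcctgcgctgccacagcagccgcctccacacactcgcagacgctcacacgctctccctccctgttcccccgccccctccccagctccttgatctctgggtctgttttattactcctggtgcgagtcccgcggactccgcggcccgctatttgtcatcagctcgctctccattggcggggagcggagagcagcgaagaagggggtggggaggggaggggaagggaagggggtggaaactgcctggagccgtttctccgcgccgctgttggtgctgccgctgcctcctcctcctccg
In the first ZEB1 window the E-boxes began at -242, -85 and 34 relative to the annotated start, and in the second at -57. The windows of ZEB2, VIM and CDH2 shown here held no such 6 letters.

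Counts on genes ran from 19308315 to 28648657 per library. Each targeted gene fell in its own knockdown, to 19.2% of siCTL for CARM1, 68.9% for CHD4, 19.7% for HDAC2, 29.8% for GATAD2A and 16.6% for KDM1A. CHD4 shares 46.91% of its exonic bases with another annotated gene on the same strand, and whether such bases are left out of its count was not tested. NEFL, a neurofilament gene known from HEK293 cells, was at 128.8 to 201.9 CPM (counts per 1000000 counts of the TMM-scaled library) in every library, while the related NEFM reached at most 18 counts. Genes of MCF7, the breast cancer line that the study also used, were in part absent and in part expressed. TFF3 and AGR2 were at 0 in all 12 libraries, ESR1 reached 14 counts and TFF1 reached 5, while GATA3 (11.03 to 18.1 CPM), FOXA1 (8.43 to 17.3), GREB1 (12.1 to 57.6) and PGR (1.99 to 7.03) were found in every library. The 11 genes of that list summed to 125 to 197 CPM, most of it KRT19 itself. Of 6 blood genes, PTPRC and HBB reached at most 1 count, and the list summed to 2.01 to 9.41 CPM. The 3 endothelial genes measured of 4 listed summed to 8.14 to 17.2 CPM, nearly all of it VWF (8.004 to 16.1 CPM), with CDH5 at 1 to 13 counts.

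Per length, the keratins of simple epithelia and vimentin were the most abundant members. In siCTL the mean FPKM was 176 ± 1.55 for KRT18 (SD, n = 2), 166 ± 1.03 for KRT8, 72.7 ± 0.24 for VIM, 41.8 ± 1.30 for KRT19, 7.15 ± 0.21 for CDH2, 3.17 ± 0.12 for ZEB1, 0.637 ± 0.007 for ZEB2, 0.322 ± 0.031 for SNAI2, 0.175 ± 0.006 for CDH1 and 0.057 ± 0.020 for EPCAM. The order was the same in both siCTL libraries and no neighbours overlapped. The length used for ZEB2, 26151 bases, adds all its annotated exons, and which of them these cells use was not tested. N-cadherin RNA thus stood far above E-cadherin RNA, and CDH1 was 1.19% to 4.87% of CDH2 per length over the 12 libraries. In siGATAD2A the order of the weakest repressor and E-cadherin turned, with CDH1 at 0.368 ± 0.015 FPKM and SNAI2 at 0.104 ± 0.002 FPKM.

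**Figure D1:**
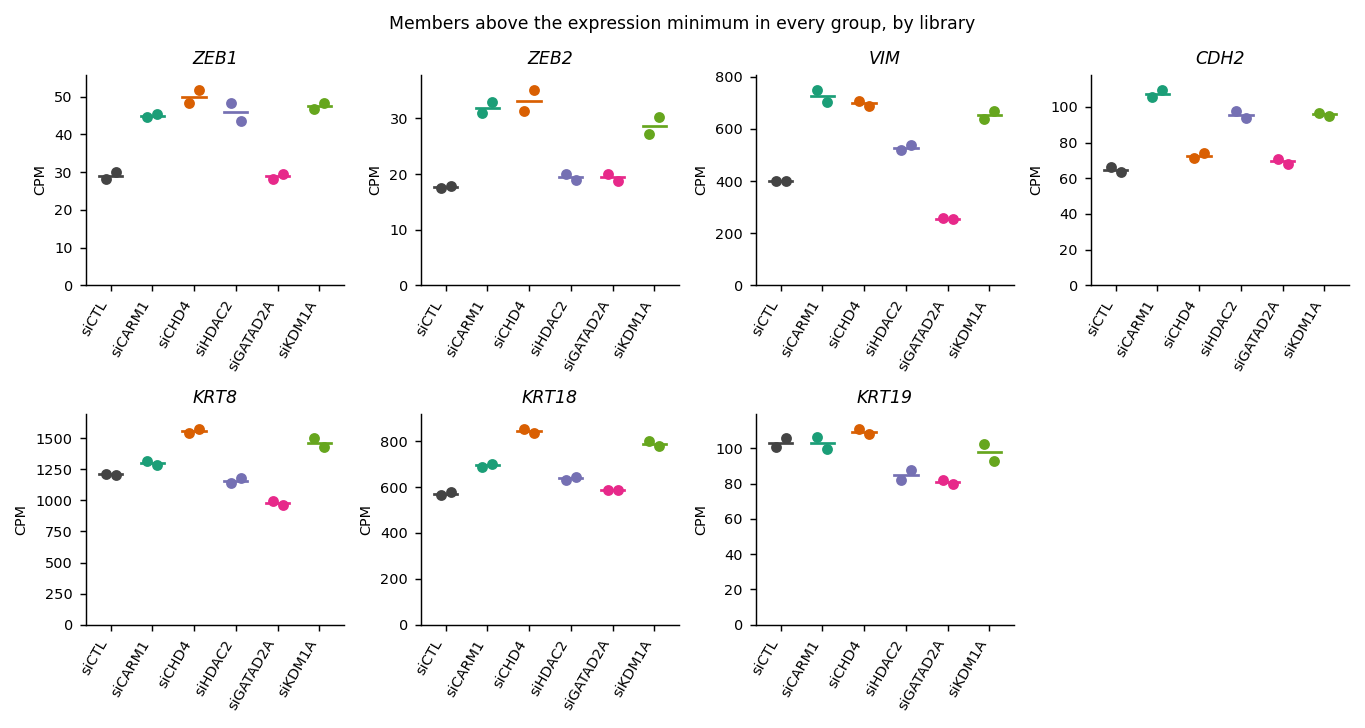
Level of the 7 members above the expression minimum in every group, in CPM on a linear axis from 0, with 1 point per library and a bar at the mean of the 2 libraries. ZEB1 and VIM of siGATAD2A lie apart from the other 4 knockdowns, and CDH2 of siCHD4 lies near siCTL.

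ZEB1 and ZEB2, the zinc-finger repressors that silence epithelial genes, rose in the same 3 knockdowns, siCARM1, siCHD4 and siKDM1A, and ZEB1 rose in siHDAC2 too. ZEB1 (ENSG00000148516, chr10:31607424-31818742, plus strand, GRCh37) was at 28.2 and 29.9 CPM in siCTL. It was at 44.5 and 45.3 CPM in siCARM1, 48.3 and 51.7 in siCHD4, 48.2 and 43.5 in siHDAC2, and 46.7 and 48.2 in siKDM1A, and these 8 libraries all lay above siCTL. In siGATAD2A it was at 28.2 and 29.6 CPM, within the range of siCTL. The log2 fold change was 0.63 (SE 0.07, adjusted p = 1.57e-08) in siCARM1, 0.78 (SE 0.07, adjusted p = 3.55e-11) in siCHD4, 0.65 (SE 0.07, adjusted p = 1.81e-08) in siHDAC2 and 0.71 (SE 0.07, adjusted p = 1.72e-09) in siKDM1A. For siGATAD2A the test did not pass, at -0.01 (SE 0.07, adjusted p = 0.925). All p-values come from edgeR's quasi-likelihood test with Benjamini-Hochberg adjustment across the 12830 genes. Calls needed both a minimum fold of 1.2 and an adjusted p no higher than 0.05. With 2 libraries in each group, the smallest p of an exact permutation test is 0.333 (two-sided). In bulk RNA, fewer cells of a kind and less RNA per cell cannot be told apart.

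ZEB2 (ENSG00000169554, chr2:145121931-145278624, minus strand, GRCh37), the paralog of ZEB1, was at 17.4 and 17.8 CPM in siCTL. It stood at 31.0 and 32.9 CPM in siCARM1, 31.3 and 35.1 in siCHD4, and 27.1 and 30.3 in siKDM1A, while siHDAC2 held 19.9 and 19.0 and siGATAD2A held 20.1 and 18.8. The libraries of the first 3 knockdowns thus lay apart from the other 6. The log2 fold change was 0.85 (SE 0.09, adjusted p = 1.63e-09) in siCARM1, 0.91 (SE 0.09, adjusted p = 9.56e-11) in siCHD4 and 0.70 (SE 0.09, adjusted p = 1.08e-07) in siKDM1A. In siHDAC2 it was 0.14 (SE 0.09, adjusted p = 0.247) and in siGATAD2A 0.14 (SE 0.09, adjusted p = 0.208), and neither was called. A gene on the same strand, AC009951.1, shares 11.34% of the exonic bases of ZEB2.

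SNAI2, which encodes the repressor SLUG, was scarce but moved in opposite directions. The gene (ENSG00000019549, chr8:49830157-49834299, minus strand, GRCh37) had 19 and 26 counts in siCTL, 54 and 42 in siCARM1, 19 and 25 in siCHD4, 38 and 36 in siHDAC2, 9 and 8 in siGATAD2A, and 48 and 59 in siKDM1A. Scaled to CPM, siGATAD2A was the lowest group at 0.37 and 0.35, and siKDM1A the highest at 2.19 and 2.47. SNAI2 fell in siGATAD2A by 1.63 on the log2 scale (SE 0.42, adjusted p = 0.00175, edgeR) and rose in siKDM1A by 1.05 (SE 0.29, adjusted p = 0.00356). In siCARM1 the value was 0.85 (SE 0.29, adjusted p = 0.0171), and this call was lost at a log2 fold change of 0.85 with DESeq2 (adjusted p = 0.075), 0.76 and 0.96 without siCTL replicate 1 or 2 (0.0917 and 0.0532), and 0.83 without siCARM1 replicate 1 (0.0674). SNAI2 entered the test only through its means in siCARM1 and siKDM1A, where it is high, so it stands outside the counts of members given below. Its calls were the same when all coding genes with at least 1 count were tested.

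VIM and CDH2, the mesenchymal members, both rose in siCARM1, siHDAC2 and siKDM1A. In siCHD4 only VIM was called higher, and in siGATAD2A VIM fell while CDH2 was not called. VIM (ENSG00000026025, chr10:17270240-17279592, plus strand, GRCh37) encodes vimentin, the intermediate filament protein of mesenchymal cells. It was at 398 and 398 CPM in siCTL, 748 and 703 in siCARM1, 707 and 688 in siCHD4, 518 and 537 in siHDAC2, 257 and 254 in siGATAD2A, and 640 and 670 in siKDM1A. No knockdown overlapped siCTL, and siGATAD2A alone lay below it. VIM rose by 0.87 on the log2 scale in siCARM1 (SE 0.04, adjusted p = 1.22e-17), by 0.81 in siCHD4 (SE 0.04, adjusted p = 1.15e-17), by 0.72 in siKDM1A (SE 0.04, adjusted p = 1.85e-15) and by 0.41 in siHDAC2 (SE 0.04, adjusted p = 1.46e-09). In siGATAD2A it fell by 0.64 (SE 0.04, adjusted p = 2.21e-14). Antisense genes cover 24.63% of the exonic bases of VIM, and the calls were the same with counts taken without regard to strand.

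CDH2 (ENSG00000170558, chr18:25512843-25757910, minus strand, GRCh37) encodes N-cadherin, the adhesion protein that replaces E-cadherin in mesenchymal and neural cells. It was at 66.1 and 63.8 CPM in siCTL, 105 and 109 in siCARM1, 97.7 and 93.9 in siHDAC2, 96.6 and 95.03 in siKDM1A, 71.5 and 74.0 in siCHD4, and 70.8 and 68.2 in siGATAD2A. All 10 knockdown libraries lay above both siCTL libraries, but only 3 groups passed both thresholds. CDH2 rose by 0.73 on the log2 scale in siCARM1 (SE 0.05, adjusted p = 1.18e-12), by 0.56 in siHDAC2 (SE 0.05, adjusted p = 1.1e-09) and by 0.56 in siKDM1A (SE 0.05, adjusted p = 5.27e-10). In siCHD4 the difference was 0.17 (SE 0.05, adjusted p = 0.00835), a fold of 1.12 that is under the minimum. In siGATAD2A it was 0.10 (SE 0.05, adjusted p = 0.125).

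**Figure D2:**
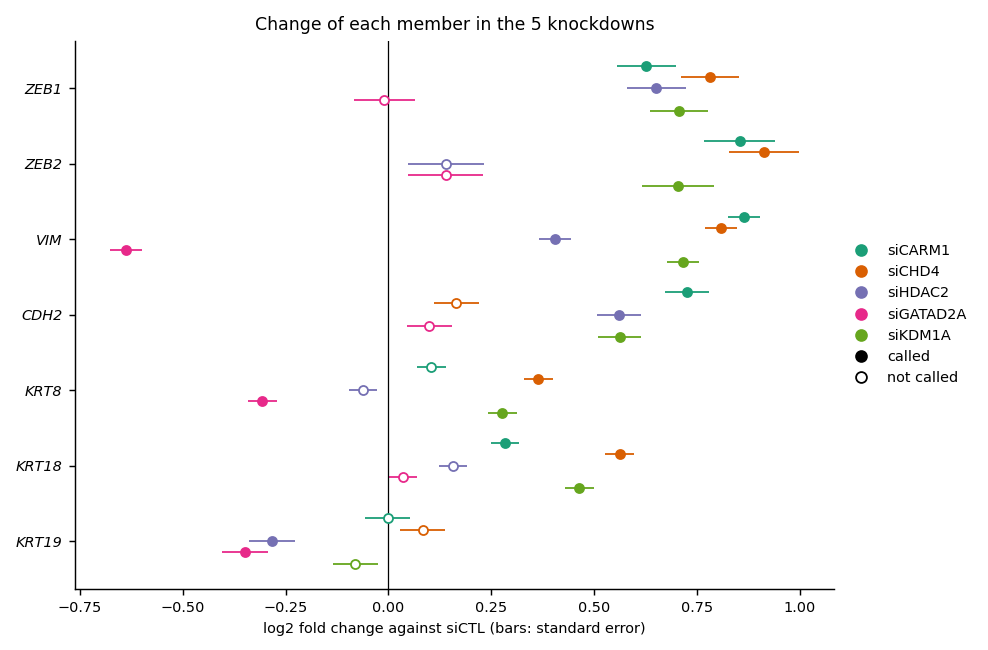
Log2 fold change against siCTL (horizontal axis) of the 7 members in the 5 knockdowns, with the standard error as a bar. Filled points were called and open points were not. VIM has points on both sides of 0, from -0.64 in siGATAD2A to 0.87 in siCARM1, whereas every called point of ZEB1, ZEB2 and CDH2 lies above 0.

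KRT8 and KRT18, the partner keratins of simple epithelia, rose together in siCHD4 and siKDM1A. KRT8 (ENSG00000170421, chr12:53290971-53343738, minus strand, GRCh37) was at 1212 and 1208 CPM in siCTL, 1544 and 1572 in siCHD4, 1504 and 1429 in siKDM1A, 1319 and 1283 in siCARM1, 1138 and 1179 in siHDAC2, and 992 and 965 in siGATAD2A. No knockdown overlapped siCTL, and siHDAC2 and siGATAD2A lay below it. KRT8 rose by 0.36 on the log2 scale in siCHD4 (SE 0.03, adjusted p = 1.07e-10) and by 0.28 in siKDM1A (SE 0.03, adjusted p = 1.11e-07), and it fell by 0.31 in siGATAD2A (SE 0.03, adjusted p = 9.54e-09). The siKDM1A value is a fold of 1.21, close to the minimum: it was 0.24 without siKDM1A replicate 1 and 0.25 with a wider gene filter, and was then not called. The values of 0.10 in siCARM1 (adjusted p = 0.0133) and -0.06 in siHDAC2 (adjusted p = 0.164) were not called.

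KRT18 (ENSG00000111057, chr12:53342655-53346690, plus strand, GRCh37) overlaps KRT8 on the other strand over 17.11% of its exonic bases. It was at 567 and 577 CPM in siCTL, 851 and 838 in siCHD4, 800 and 778 in siKDM1A, 689 and 703 in siCARM1, 629 and 646 in siHDAC2, and 587 and 585 in siGATAD2A. All knockdown libraries lay above siCTL. The gene rose by 0.56 on the log2 scale in siCHD4 (SE 0.03, adjusted p = 6.51e-15), by 0.46 in siKDM1A (SE 0.03, adjusted p = 4e-12) and by 0.28 in siCARM1 (SE 0.03, adjusted p = 7.84e-08). It was not called in siHDAC2, at 0.16 (adjusted p = 0.000743, a fold of 1.11), or in siGATAD2A, at 0.04 (adjusted p = 0.414). Per length, KRT8 was 0.954 and 0.934 of KRT18 in the siCTL libraries and 0.736 to 0.854 in the 10 knockdown libraries, so the balance of the partners differed from siCTL in every knockdown library, most in siGATAD2A. Annotated processed copies of KRT8 held at most 2.56% of its count and those of KRT18 at most 1.9%.

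KRT19 (ENSG00000171345, chr17:39679869-39684560, minus strand, GRCh37), the small acidic keratin of ductal epithelia, was called higher in no knockdown, unlike KRT8 and KRT18. It was at 101 and 106 CPM in siCTL, 82.1 and 87.7 in siHDAC2, 82.4 and 79.9 in siGATAD2A, 107 and 99.8 in siCARM1, 111 and 108 in siCHD4, and 103 and 92.9 in siKDM1A. Only siHDAC2 and siGATAD2A lay wholly below siCTL. Over the 12 libraries, Pearson's r of log2 CPM was 0.811 between KRT19 and KRT8 and 0.549 between KRT19 and KRT18. KRT19 fell by 0.35 on the log2 scale in siGATAD2A (SE 0.06, adjusted p = 4.26e-06) and by 0.28 in siHDAC2 (SE 0.06, adjusted p = 0.000191). The siHDAC2 value is a fold of 1.22 and was -0.25 without siCTL replicate 2 and -0.24 without siHDAC2 replicate 1, when it was not called. The other knockdowns gave 0.08 (siCHD4), -0.08 (siKDM1A) and -0.00 (siCARM1) with adjusted p of 0.182, 0.248 and 0.983.

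CDH1 and EPCAM, the surface proteins by which epithelial cells are usually recognised, were below the minimum in every group. CDH1 (ENSG00000039068, chr16:68771195-68869440, plus strand, GRCh37), which encodes E-cadherin and is the best known target of SNAI and ZEB proteins, had 21 and 24 counts in siCTL. It had 60 and 52 in siGATAD2A, 43 and 59 in siKDM1A, 26 and 20 in siCARM1, 31 and 22 in siCHD4, and 16 and 29 in siHDAC2. Scaled to CPM, siGATAD2A (2.44 and 2.30) and siKDM1A (1.96 and 2.47) lay above all other libraries, which held 0.82 to 1.37. With all coding genes of at least 1 count in the test, CDH1 rose by 1.07 on the log2 scale in siGATAD2A (adjusted p = 0.0018, edgeR) and by 0.97 in siKDM1A (adjusted p = 0.00704), and the other 3 knockdowns were not called. These levels stayed far under those of CDH2. EPCAM (ENSG00000119888, chr2:47572297-47614740, plus strand, GRCh37), an adhesion protein of epithelia, had 2 and 4 counts in siCTL and 0 to 6 counts in the knockdown libraries. A count of 0, found in 1 siCARM1 and 1 siHDAC2 library, allows up to 3 counts, so a fall of EPCAM could not be seen at this depth. EPCAM was called in no knockdown when all coding genes of at least 1 count were tested (adjusted p from 0.288 to 0.973, edgeR).

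**Figure D3:**
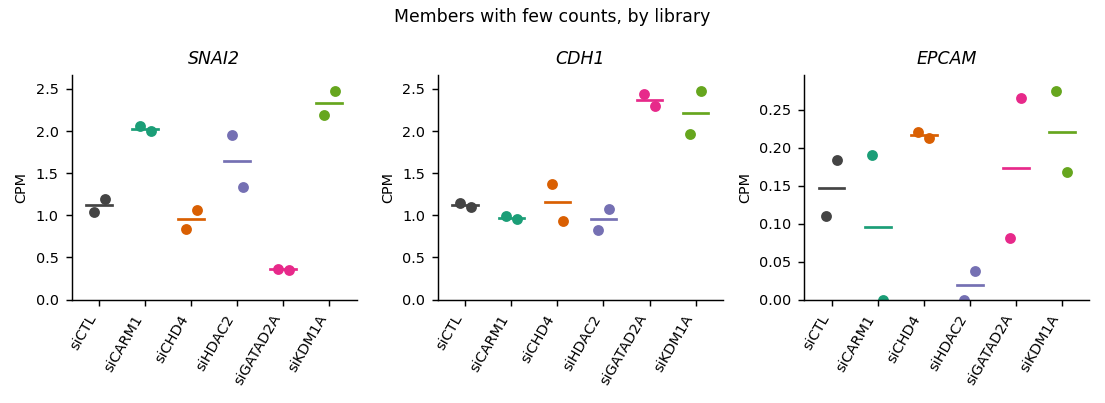
SNAI2, CDH1 and EPCAM in CPM on a linear axis from 0, with 1 point per library and a bar at the mean of the 2 libraries. CDH1 is highest in siGATAD2A and siKDM1A, SNAI2 is lowest in siGATAD2A, and EPCAM rests on at most 6 counts.

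Taken by knockdown, all calls among the 7 members were upward in siKDM1A, siCARM1 and siCHD4 and downward in siGATAD2A. Knockdown of KDM1A raised 6 of 7, with 14.2% of all tested genes higher and 11.5% lower, and KRT19 was the member not called. Without siKDM1A replicate 1, or with the wider gene filter, 5 were called, KRT8 being lost. Knockdown of CARM1 raised 5 of 7 (14.9% of all genes higher, 14.5% lower), and so did knockdown of CHD4 (24% of all genes higher, 24.9% lower); none fell in either. In siHDAC2, 3 members rose (10.6% of all genes) and 1 fell (9% of all genes). In siGATAD2A, none rose (15.7% of all genes) and 3 fell (18.2% of all genes), namely VIM, KRT8 and KRT19. The median log2 fold change of the 7 was 0.63 for siCARM1, 0.56 for siCHD4 and for siKDM1A, 0.16 for siHDAC2 and -0.01 for siGATAD2A, and over all tested genes it lay within -0.00237 and 0.0051. Of the 11672 tested genes above the minimum in every group, 9.96% to 22.3% were higher and 9.09% to 25% were lower in a knockdown. Directions with no called member also held none at an unadjusted p under 0.05 in edgeR and none called by DESeq2. The 5 comparisons share the siCTL libraries. Epithelial and mesenchymal members rose in the same libraries: KRT18 and VIM both rose in siCARM1, siCHD4 and siKDM1A.

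In direct comparisons of the knockdowns, siCTL enters only the estimate of the spread and the scaling. Each of the 7 members had its largest log2 difference in a pair with siGATAD2A. For ZEB2 the difference between siCHD4 and siHDAC2 was nearly as large as that between siCHD4 and siGATAD2A (0.773 and 0.774). All 7 members were lower in siGATAD2A than in siKDM1A (32.1% of all genes differed in either direction). In 6 of 7 it was lower than siCARM1 (33.8%) and in 6 of 7 lower than siCHD4 (44.8%), and 3 of 7 were lower than in siHDAC2 (29.5%). VIM was lower in siGATAD2A than in siCARM1 by a log2 difference of 1.504 (SE 0.04, adjusted p = 1.17e-23, edgeR), than in siCHD4 by 1.45 (adjusted p = 7.92e-24) and than in siHDAC2 by 1.04 (adjusted p = 2.14e-19). ZEB1 was lower in siGATAD2A than in each other knockdown, by log2 differences from 0.64 (siCARM1) to 0.79 (siCHD4), and was not called between any of the other 4. These pairs included siCARM1 against siKDM1A, with a difference of -0.08 (SE 0.07).

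The remaining pairs set siHDAC2 apart for ZEB2 and siCHD4 apart for CDH2. Between siCHD4 and siHDAC2, 6 of 7 members were called (48.8% of all genes), 5 of them higher in siCHD4. Between siHDAC2 and siKDM1A 4 of 7 were called (14.3%), all lower in siHDAC2, and between siCARM1 and siHDAC2 3 of 7 were called (19.3%), all higher in siCARM1. ZEB2 was lower in siHDAC2 than in siCHD4 by a log2 difference of 0.77 (SE 0.08, adjusted p = 1.64e-09), and its difference between siHDAC2 and siGATAD2A was 0.00 (SE 0.09). CDH2 was higher in siCARM1 than in siCHD4 by 0.56 (SE 0.05, adjusted p = 5.38e-11), and in siHDAC2 and siKDM1A it was higher than in siCHD4 by 0.40 each. Only CDH2 and KRT18 were called between siCARM1 and siCHD4 (2 of 7, 47.7% of all genes), in opposite directions, and only CDH2 between siCHD4 and siKDM1A (1 of 7, 47.7%). DESeq2 called 3 members between siCARM1 and siCHD4. KRT8 differed there by -0.26 (SE 0.03, adjusted p = 9.8e-08, edgeR), with a fold under the minimum. Between siCARM1 and siKDM1A none of the 7 was called (21% of all genes). The differences of these 7 lay between -0.18 (KRT18, SE 0.03) and 0.16 (CDH2, SE 0.05). Of these, 4 passed the threshold on adjusted p (edgeR), and only the fold minimum kept them from a call. DESeq2 also called none.

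Among the other transcription factors of the epithelial to mesenchymal transition that lay above the minimum in every group, all calls but 1 were upward. Of 18 listed, 13 lay above the minimum in every group: 5 rose after knockdown of CARM1 (14.9% of all genes) and 5 after that of KDM1A (14.2%), 7 rose in siCHD4 (24%), 4 in siGATAD2A (15.7%) and 2 in siHDAC2 (10.6%, close to the share of the list), and 1, TCF4, fell in siCHD4. The median log2 fold change of the 13 lay between 0.03 (siGATAD2A) and 0.37 (siCHD4). TCF3, which encodes the E-box binding E2A proteins, rose in all 5 knockdowns, from 108 CPM in siCTL to between 130 CPM (siCARM1, log2 fold change 0.27) and 188 CPM (siCHD4, 0.80, SE 0.05, adjusted p = 2.64e-14). SNAI1, the paralog of SNAI2, rose only in siCHD4 among the tests against siCTL, from 7.41 to 14.5 CPM (0.98, SE 0.14, adjusted p = 4.26e-07). SOX9, a factor of progenitor cells, rose by 0.63 in siCARM1, 0.88 in siCHD4, 0.88 in siGATAD2A and 0.44 in siKDM1A. PRRX1, a mesenchymal homeobox gene above the minimum in some groups only, fell by 0.77 in siGATAD2A (SE 0.16, adjusted p = 0.000214).

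Of 39 other mesenchymal genes listed, 27 lay above the minimum in every group, and calls were mostly downward in siGATAD2A and mostly upward in siKDM1A. In siGATAD2A 15 fell and 1 rose (18.2% and 15.7% of all genes), with a median log2 fold change of -0.35, and in siKDM1A 12 rose and 3 fell (14.2% and 11.5% of all genes), with a median of 0.21. The counts were 9 higher and 5 lower in siCARM1, 10 and 8 in siCHD4, and 8 and 3 in siHDAC2, with medians of -0.03, -0.08 and 0.04. The shares of all genes were 14.9% and 14.5%, 24% and 24.9%, and 10.6% and 9%. S100A4, a calcium-binding protein of motile cells, fell by 1.99 on the log2 scale in siGATAD2A (SE 0.18, adjusted p = 1.35e-10), from 7.56 to 1.90 CPM, and also fell in siCHD4, siHDAC2 and siKDM1A. COL3A1, a fibrillar collagen, fell from 15.2 to 4.08 CPM in siGATAD2A (-1.89, SE 0.13, adjusted p = 1.09e-13) and by 0.97 in siCHD4, and rose by 0.34 to 0.47 in the other 3. CNN1, a smooth muscle calponin, rose from 2.94 to 21.7 CPM in siCHD4 (2.91, SE 0.17, adjusted p = 8.55e-16) and by 0.76 in siCARM1. The 8 fibroblast markers, some of which are on this list, summed to 133.6 to 134.6 CPM in siCTL, 91.5 to 94.4 in siGATAD2A and 147 to 168 in siKDM1A. In siCARM1 (109 to 114), siCHD4 (104 to 106) and siHDAC2 (113 to 120) the sum was below siCTL, although more listed genes were called higher than lower there. Most of the sum was COL1A1 (78.5 to 130 CPM), while DCN was at 0 to 2 counts and COL1A2 at 0 to 32, and the part of these markers in the result was not tested.

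**Figure D4:**
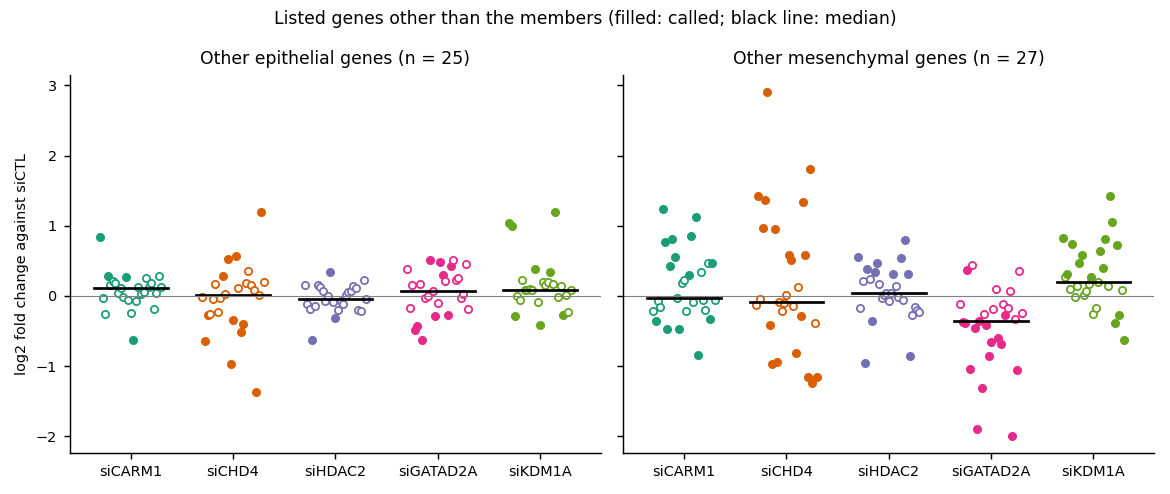
Log2 fold change against siCTL (vertical axis) of the listed epithelial genes (25) and mesenchymal genes (27) other than the members, above the minimum in every group, with 1 point per gene in each knockdown. Filled points were called and the black line is the median, which is lowest for the mesenchymal genes in siGATAD2A (-0.35).

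The other epithelial genes showed no common direction. Of 42 listed, 25 lay above the minimum in every group: 5 rose and 3 fell in siKDM1A, 3 and 1 in siCARM1, 4 and 7 in siCHD4, 1 and 2 in siHDAC2, and 4 and 5 in siGATAD2A. Over all genes the shares higher and lower were 14.2% and 11.5%, 14.9% and 14.5%, 24% and 24.9%, 10.6% and 9%, and 15.7% and 18.2% in the same order, and several of the counts, such as 3 of 25 lower in siKDM1A, were near them. Their median log2 fold changes lay between -0.04 (siHDAC2) and 0.11 (siCARM1). The genes with the largest changes were scarce and above the minimum in some groups only. GRHL3, a grainyhead factor of epithelia, fell in siCHD4 from 6.92 to 1.88 CPM (-1.88, SE 0.19, adjusted p = 4.84e-10) and by less in siCARM1, siHDAC2 and siGATAD2A, and rose by 0.50 in siKDM1A. TJP3, a tight junction scaffold, rose in siKDM1A from 2.32 to 7.79 CPM (1.75, SE 0.22, adjusted p = 1.82e-07) and fell by 1.28 in siCHD4. CLDN4, a claudin, and PRSS8, a membrane-anchored protease, were below the minimum in siCTL (0.418 and 0.481 FPKM) and entered the test only through knockdowns where they are high, so their levels are a description. CLDN4 had 1.18 FPKM in siCHD4, 0.725 in siKDM1A, 0.679 in siGATAD2A, 0.558 in siCARM1 and 0.324 in siHDAC2. PRSS8 had 1.51, 0.21, 0.816, 0.307 and 0.341 FPKM in the same groups.

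Of the 10 cadherin-catenin genes listed, 8 were above the minimum in every group, and 1 to 4 of them were called in a knockdown. JUP, which encodes plakoglobin of junctions and desmosomes, fell in siCHD4 from 208 to 106 CPM (-0.97, SE 0.05, adjusted p = 5.81e-17) and by 0.28 in siGATAD2A. CTNNA1, the α-catenin that ties cadherins to actin, fell in siGATAD2A by 0.37 (SE 0.04, adjusted p = 6.44e-10). AFDN, the junction protein afadin, rose by 0.31 to 0.34 in every knockdown but siKDM1A, where 0.19 was under the fold minimum. ARVCF, a p120-like catenin, fell by 0.27 in siCHD4. The counts were 1 higher and 0 lower in siCARM1, siHDAC2 and siKDM1A, 1 and 3 in siCHD4, and 1 and 2 in siGATAD2A. Over all genes 10.6% to 14.9% were higher in the first 3, near 1 of 8, and 24% were higher and 24.9% lower in siCHD4 and 15.7% and 18.2% in siGATAD2A. The medians of the list lay between -0.03 and 0.08.

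Other intermediate filament genes, the wider family of the keratins and vimentin, were counted for 11 of 23 listed. In siGATAD2A 5 fell (18.2% of all genes) and none rose (15.7%), and in siCHD4 4 rose (24%) and 3 fell (24.9%). siCARM1 had 1 in each direction (14.9% and 14.5% of all genes higher and lower), siHDAC2 had 2 in each (10.6% and 9%), and siKDM1A had 2 higher and 1 lower (14.2% and 11.5%). The median was -0.23 in siGATAD2A and lay between 0.01 and 0.07 in the others. KRT17, a keratin of basal and stressed epithelia, was at 48.8 CPM in siCTL and rose to 159 CPM in siCHD4 (1.71, SE 0.06, adjusted p = 1.62e-21) and by 0.66 in siKDM1A. It fell by 0.76 in siHDAC2 and by 1.22 in siGATAD2A, to 20.9 CPM. KRT5, a basal keratin, had a mean of 2 counts in siCTL and 65 in siCHD4, and INA, α-internexin of neurons, had 12.5 and 99. Both entered the test only where they are high. DES, the muscle filament desmin, fell by 1.51 in siGATAD2A, from 65 to 27 counts in the mean.

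The corepressor genes through which SNAI and ZEB proteins act were above the minimum for all 23 listed, among them the siRNA targets CHD4, HDAC2, GATAD2A and KDM1A. The called genes were 3 higher and 3 lower in siCARM1 and in siGATAD2A, 4 and 1 in siCHD4, 3 and 2 in siHDAC2, and 2 and 4 in siKDM1A, counting each target in its own knockdown. Over all genes 10.6% to 24% were higher and 9% to 24.9% lower in a knockdown, and 3 of 23 each way in siCARM1 is near its 14.9% and 14.5%. The medians lay between -0.04 and 0.08. HDAC1, the paralog of HDAC2, was not named by the rule and was chosen after its values were seen: it rose in all 5, by 0.31 to 0.52. RCOR2, a CoREST scaffold of KDM1A, rose in siCHD4 from 13.7 to 28.6 CPM (1.06, SE 0.10, adjusted p = 1.72e-10). GATAD2A itself rose in siCHD4 by 1.09 (SE 0.05, adjusted p = 1.34e-17), and KDM1A and HDAC2 were called only in their own knockdowns.

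The genes whose levels followed a member most closely were found by Pearson's r of log2 CPM over the 12 libraries among genes with a mean of at least 100 counts. The libraries share their groups, so r describes the group pattern. VIM was followed by CD44, the hyaluronan receptor (r = 0.98), GART, an enzyme of purine synthesis (0.972), and COL5A1, a fibrillar collagen (0.971). CD44 averaged 37.1 CPM in siCTL, 18.0 in siGATAD2A, 48.4 in siHDAC2, 62.2 in siKDM1A, 87.3 in siCARM1 and 95.7 in siCHD4. COL5A1 averaged 294, 230, 409, 439, 518 and 569 CPM in the same groups, so that both rose in 4 knockdowns and fell in siGATAD2A, as VIM did. ZEB1 was nearest to FKBP14, a chaperone of collagen folding (0.981), ADAMTS2, a procollagen protease (0.973), and PTPRD, a receptor phosphatase (0.969). ZEB2 was nearest to PAPPA, a protease of the IGF system (0.968), and to NAE1 and CASP8 (both 0.958). SNAI2 was nearest to FN1, which encodes fibronectin (0.965), GNPTAB (0.964) and SLITRK5 (0.961). FN1 fell by 0.85 in siGATAD2A and rose by 0.27 in siKDM1A.

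**Figure D5:**
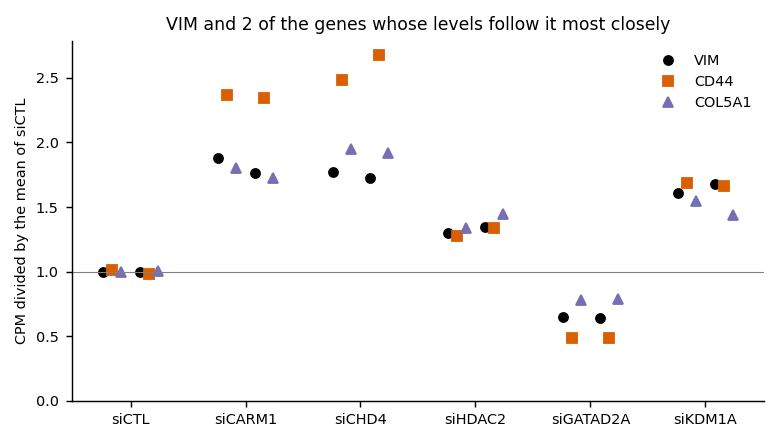
CPM of VIM, CD44 and COL5A1 in each library divided by the mean of siCTL, on a linear axis from 0 with a grey line at 1. All 3 genes lie above 1 in siCARM1, siCHD4, siHDAC2 and siKDM1A and below 1 in siGATAD2A.

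For the keratins, KRT8 was nearest to L1CAM, a neural adhesion molecule (0.986), TNFRSF10A, a TRAIL receptor (0.976), and RNF122 (0.969). KRT18 was nearest to ACADVL, an enzyme of fatty acid oxidation (0.973), ITPRIPL2 and KCNJ4 (both 0.971). KRT19 was nearest to EZR, which encodes ezrin of the cell cortex (0.977), EPPK1, which encodes the keratin-binding epiplakin (0.971), and TAP1 (0.964). CDH2 was nearest to TOP2B, a topoisomerase (0.965), MIB1, a ligase of Notch ligands (0.958), and SUPT3H (0.95). No gene was among the 3 nearest of more than 1 member.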

How the data were processed

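Gene expression was measured by RNA-seq (directional NEBNext kit, paired ends) in 12 HEK293T libraries. Raw read-pair counts per Ensembl gene were deposited by the authors in 3 columns (without strand and for each strand). The submitters' processing notes name STAR 2.7.10, CASAVA 1.4 and hg19, whereas the annotation is not given in the sources used here. Multimapping pairs do not enter STAR's gene counts, which bears on the keratins and their copies. Counts of the reverse strand were used; the other strand held 7.93% to 8.4% as many. Identifiers were matched to GENCODE 44 on GRCh37, the assembly of hg19 (58662 of 60660), and the others held 1.75% to 2.61% of counts. The fit was edgeR 4.0.16 in R 4.3.3 (glmQLFit and glmQLFTest, TMM factors 0.968 to 1.01, 6 group means, no covariate), checked on simulated counts, with Benjamini-Hochberg adjustment over 12830 coding genes. The study's thresholds were kept. DESeq2 1.42.0, other filters, scalings, strands and left-out libraries were alternatives.

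Members and lists were chosen with earlier results of these data known. Genes named from a list were at most 4 of those called, by largest absolute log2 fold change, with a mean of at least 50 counts in 1 of the compared groups and no overlap between libraries; 1 gene so chosen is not reported here. For likeness, the 3 genes nearest in r were named. Replicate numbers were not used to pair the samples. No library was counted as a copy of another, since replicates differed beyond sampling noise.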

Additional observations from a re-analysis of the deposited data

How the results depend on the processing

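With 2 libraries a group, spread was estimated over all 6 groups, and a group left with 1 library was assumed to vary like the others. Over all alternatives, members called were 5 to 6 in siCARM1, 5 to 6 in siCHD4, 3 to 5 in siHDAC2, 3 in siGATAD2A and 5 to 6 in siKDM1A, and 37 to 40 between knockdowns (38 as reported). Of 835 log2 fold changes computed under alternatives, 819 kept their direction and side of the threshold. Values near 0 changed sign: KRT19 in siCARM1 was 0.0052 with an FPKM minimum of 1 and ranged from -0.052 to 0.040 with a library left out, and ZEB1 in siGATAD2A ranged from -0.050 to 0.034. Without a fold minimum, KRT8 in siCARM1, CDH2 in siCHD4 and KRT18 in siHDAC2 were also called. With the replicate block, members called were 5, 5, 4, 3 and 6 in siCARM1, siCHD4, siHDAC2, siGATAD2A and siKDM1A and 38 between knockdowns. Deviations of same-numbered libraries had r from -0.115 to 0.144 over 15 pairs of groups. Counting noise pulls such r towards 0, so whether the numbers mark a shared batch was not settled. CDH1, EPCAM and SNAI2 are limited by depth.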
